A study of Mus musculus with 6 samples.

Results

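Carbon metabolism was followed through 45 genes of glycolysis, lactate handling, the pentose phosphate pathway and the tricarboxylic acid (TCA) cycle in proB cells of mice with mutant Ikaros. The members were taken by name from the 22098 gene symbols of the expression table, and for each symbol the transcript with the highest mean was used. They form a glucose and lactate arm of 15 genes, a mitochondrial arm of 22 and a pentose arm of 6. A pair of pyruvate dehydrogenase kinases, Pdk1 and Pdk3, completes the set. Gapdh, Pgam1 and Eno1 were left out because reads shared with their gene copies were taken to be lost. A further 6 genes with pseudogene copies were kept as members. Across the 6 libraries 43 members had a mean of at least 1 RPKM (reads scaled to transcript length and library size), as did 10943 genes in all. The remaining 2, Ldhb (0.1 to 1.2 RPKM) and Suclg2 (0.4 to 1.2 RPKM), did not enter the tests.

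Ikaros, encoded by Ikzf1, is a zinc finger transcription factor needed for lymphocyte development, and the series compares the roles of single fingers of its DNA-binding domain. RNA came from bone marrow proB cells of C57BL/6 mice aged 6 to 7 weeks, sorted as Hardy fraction B or as the later pool of C with C', which is named fraction C here. The genotypes were wild type (wt), Ikaros_ZnF1-/- (ZnF1, zinc finger 1 mutated) and Ikaros_ZnF4-/- (ZnF4, zinc finger 4 mutated), and each genotype and fraction had 1 library. How the alleles were made, and how many animals entered a library, is not given in the sources used here. A difference between a pair of libraries therefore has no replicate check.

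Glycolysis splits glucose to pyruvate in the cytosol. Pyruvate is either reduced to lactate, which leaves the cell through monocarboxylate transporters, or enters the mitochondrion, where the pyruvate dehydrogenase complex turns it into acetyl-CoA for the TCA cycle. Pyruvate dehydrogenase kinases switch that complex off by phosphorylation. The pentose phosphate pathway branches off at glucose 6-phosphate and yields NADPH and the ribose of nucleotides. Growing lymphocyte precursors use all of these routes, and Ikaros is known as a restraint on glucose and energy supply in pre-B cells.

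The libraries differed in more than genotype. Ikzf1 RNA measured 150.3 and 169.4 RPKM in wt (fractions B and C), 181.5 and 154.1 in ZnF1 and 431.6 and 425.1 in ZnF4, values that do not resolve the mutated finger. Xist measured 81.3 and 91.9 RPKM in the wt libraries and 0 in the 4 mutant ones, which held Y-linked RNA instead. Sex and genotype therefore cannot be told apart in comparisons with wt, for any gene. The X-linked members are Pgk1, Pdha1, Idh3g, G6pdx and Pdk3. All 15 B-lineage markers were measured in every library, with sums between 2327 and 5199 RPKM. The ZnF1 library of fraction C stood apart: its 15 granulocyte and monocyte markers summed to 42097 RPKM, against 1006 to 3752 in the other 5 libraries, and its 11 erythroid markers to 1664 RPKM, against 26.2 to 137.4. The NK-cell and cytotoxic markers summed to 2.5 RPKM in ZnF4 and 89.9 in wt in fraction B, and to 9.5 and 46.7 in fraction C. In bulk samples such as these, fewer cells of a type and less RNA per cell cannot be told apart.

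In the ZnF4 libraries the glucose and lactate arm was lower than in wt in both fractions, and the mitochondrial arm stood closer to wt. The summed RPKM of the glucose and lactate arm was 0.51 times that of wt in fraction B and in fraction C, while the mitochondrial arm was at 0.84 and 0.86 times, the pentose arm at 0.86 and 0.97 times, and the kinases at 0.42 and 0.45 times. Per gene, the median difference in log2(RPKM + 1) from wt was -0.89 in fraction B and -0.81 in fraction C for the glucose and lactate arm, -0.26 and -0.25 for the mitochondrial arm, and -0.54 and -0.24 for the pentose arm. Over all 10943 genes it was -0.09 and -0.05. Folds are given on the log2(RPKM + 1) scale, on which a change in a gene of low RPKM looks smaller than it is.

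Of the 43 members, 25 were lower in both ZnF4 libraries than in either wt library, which held for 33.0% of all genes. They comprised 13 of 14 in the glucose and lactate arm, 7 of 21 in the mitochondrial arm, 3 of 6 in the pentose arm and both kinases. Pdhb and Pgls were higher in both ZnF4 libraries than in either wt library, as were 27.7% of all genes. A difference of at least 2-fold in both fractions was reached by 4 members, all lower: Hk2, Ldha, Slc16a3 and Pdk1. That is 9.3% of the members, against 4.73% of all genes. No member was higher by that measure, against 2.59% of all genes.

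**Figure D1:**
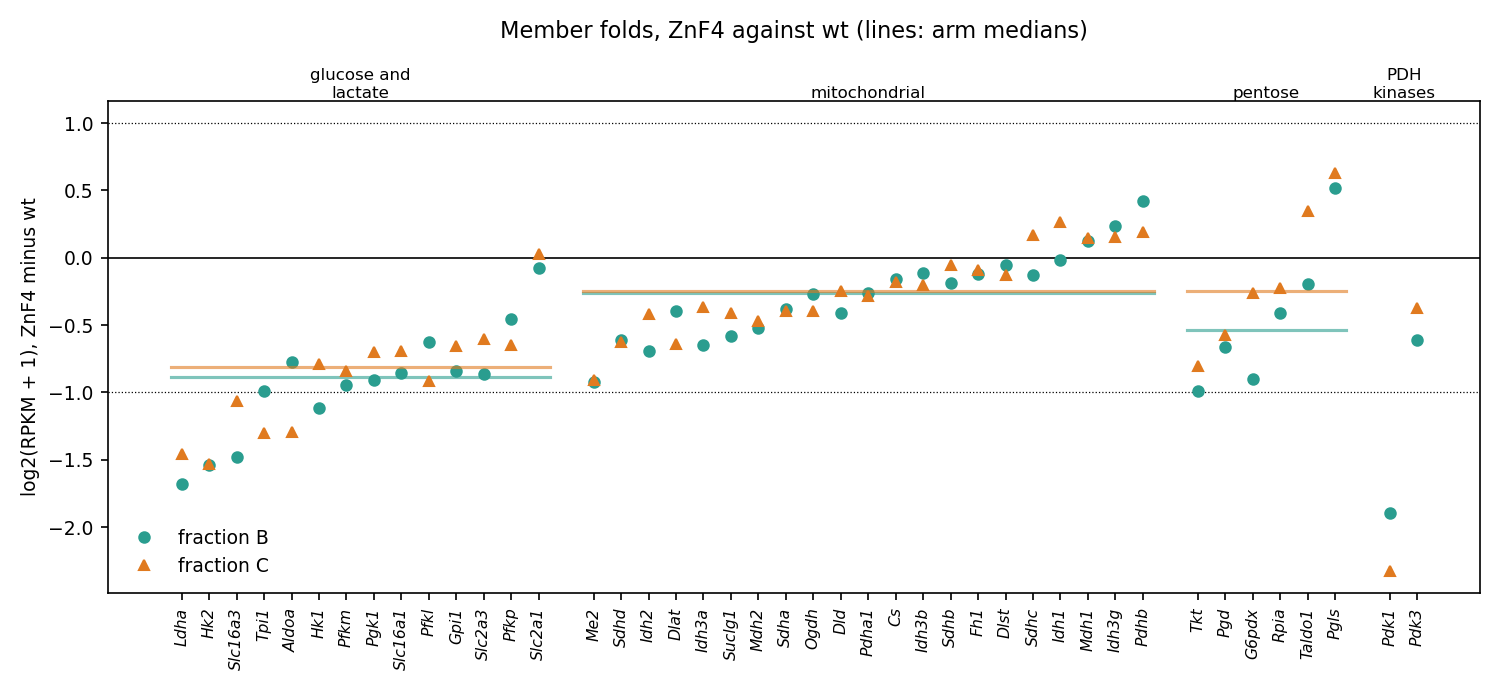
Difference in log2(RPKM + 1) between the ZnF4 and the wt library for the 43 members tested (x axis, grouped by arm), with fraction B as circles and fraction C as triangles. Horizontal bars are the medians of the larger arms, and dotted lines mark 2-fold. The points of the glucose and lactate arm lie below 0 except for Slc2a1, and its medians of -0.89 and -0.81 lie below those of the mitochondrial arm at -0.26 and -0.25.

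At the uptake step the transporters differed. Slc2a1, the GLUT1 transporter that carries most glucose into activated lymphocytes, measured 8.8 RPKM in wt, 10 in ZnF1 and 8.3 in ZnF4 of fraction B, and 9.4, 16.7 and 9.6 RPKM in fraction C. The ZnF4 values overlap those of wt, for this member alone among the 14 tested in the arm, and limma estimated a log2 difference of -0.02 (SE 0.23, adjusted p = 0.961). Slc2a3, the high-affinity transporter GLUT3, stood at 15.4, 9.9 and 8 RPKM in the wt, ZnF1 and ZnF4 libraries of fraction B and 13.3, 77.6 and 8.4 RPKM in those of fraction C. Both ZnF4 libraries were below both wt libraries, by 1.82-fold in fraction B and 1.52-fold in fraction C (log2 -0.74, SE 0.82, adjusted p = 0.66 by limma).

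Hexokinases trap glucose in the cell by phosphorylation. Hk2, the inducible isoform, measured 5.1 RPKM in wt, 3.4 in ZnF1 and 1.1 in ZnF4 of fraction B, and 7.4, 14.4 and 1.9 RPKM in fraction C. ZnF4 was the lowest library of each fraction, 2.9-fold below wt in both (log2 -1.54, SE 0.42, adjusted p = 0.193 by limma). Hk1, the constitutive isoform, stood at 28.3, 24.6 and 12.5 RPKM in the wt, ZnF1 and ZnF4 libraries of fraction B and 24.7, 53 and 13.9 RPKM in those of fraction C. It too was lowest in the ZnF4 libraries, 2.17-fold and 1.72-fold below wt (log2 -0.95, SE 0.35, adjusted p = 0.274).

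Gpi1, which converts glucose 6-phosphate to fructose 6-phosphate, measured 35.5 RPKM in wt, 42.6 in ZnF1 and 19.4 in ZnF4 of fraction B, and 41.4, 84.7 and 25.9 RPKM in fraction C. ZnF4 stood below wt and ZnF1 in both fractions, at 1.79-fold and 1.58-fold below wt (log2 -0.75, SE 0.24, adjusted p = 0.238 by limma). Phosphofructokinase, the committed step of glycolysis, has liver, muscle and platelet isoforms. Pfkl stood at 21.4, 20.5 and 13.5 RPKM in the wt, ZnF1 and ZnF4 libraries of fraction B and 35.1, 18.1 and 18.1 RPKM in those of fraction C (log2 ZnF4 against wt -0.77, SE 0.26, adjusted p = 0.246). Pfkm had values of 8.6, 8.5 and 4 RPKM (wt, ZnF1 and ZnF4 of fraction B) and 9, 11.5 and 4.6 RPKM (fraction C) (log2 -0.89, SE 0.20, adjusted p = 0.155). Pfkp had values of 18.5, 9.5 and 13.2 RPKM (wt, ZnF1 and ZnF4 of fraction B) and 26.8, 18.7 and 16.7 RPKM (fraction C) (log2 -0.55, SE 0.21, adjusted p = 0.287). All 3 isoforms were lower in ZnF4 than in wt in each fraction, without overlap, and for Pfkp the ZnF1 library was lower still in fraction B. Of the later steps, Tpi1, which interconverts the triose phosphates, was 1.98-fold and 2.47-fold lower in ZnF4 than in wt. Aldoa, the aldolase that splits fructose bisphosphate, was 1.71-fold and 2.45-fold lower. Pgk1, the X-linked phosphoglycerate kinase of the first ATP-forming step, was 1.87-fold and 1.62-fold lower (log2 -0.80, SE 0.21, adjusted p = 0.188 by limma). Levels of Gpi1, Tpi1 and Pgk1 are uncertain, as pseudogene copies cover 36.3%, 19.3% and 68.8% of their transcripts.

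RNA of Ldha, Slc16a3 and Slc16a1, genes of lactate production and export, was lower in ZnF4 as well. Ldha, the muscle-type lactate dehydrogenase subunit that favours lactate formation, measured 44.7 RPKM in wt, 65.1 in ZnF1 and 13.3 in ZnF4 of fraction B, and 88.5, 78.3 and 31.6 RPKM in fraction C. Both ZnF4 libraries lay below the other 4 libraries, 3.2-fold and 2.75-fold below wt of the same fraction (log2 -1.57, SE 0.28, adjusted p = 0.127 by limma). Ldhb, the heart-type subunit, measured 0.1 to 1.2 RPKM and stood below Ldha in every library. Slc16a3, the lactate exporter MCT4, stood at 4.3, 2.7 and 0.9 RPKM in the wt, ZnF1 and ZnF4 libraries of fraction B and 3.6, 42.4 and 1.2 RPKM in those of fraction C. MCT4 was 2.79-fold and 2.09-fold lower in ZnF4 than in wt (log2 -1.27, SE 0.995, adjusted p = 0.544). Slc16a1, the broadly expressed transporter MCT1, had values of 59.1, 48.4 and 32.2 RPKM (wt, ZnF1 and ZnF4 of fraction B) and 79.4, 50 and 48.8 RPKM (fraction C) (log2 -0.77, SE 0.20, adjusted p = 0.185), again without overlap between ZnF4 and wt.

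Of the kinases that hold pyruvate dehydrogenase inactive, the members Pdk1 and Pdk3 were also lower in RNA. Pdk2, which is no member, was higher in ZnF4 (16 RPKM against 11.4 in wt of fraction B, 12.9 against 7 in fraction C). Pdk1 measured 15.7 RPKM in wt, 15.1 in ZnF1 and 3.5 in ZnF4 of fraction B, and 20, 10.7 and 3.2 RPKM in fraction C. It had the lowest fold of all members in both fractions, 3.71-fold and 5-fold below wt (log2 -2.11, SE 0.25, adjusted p = 0.0947 by limma). Pdk3 stood at 14.7, 16.1 and 9.3 RPKM in the wt, ZnF1 and ZnF4 libraries of fraction B and 18.9, 19.2 and 14.4 RPKM in those of fraction C. Its ZnF4 values were below all others in each fraction, by 1.52-fold and 1.29-fold from wt (log2 -0.49, SE 0.18, adjusted p = 0.274). Pdk3 is X-linked, and, as for all genes, sex and genotype cannot be told apart in that comparison.

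**Figure D2:**
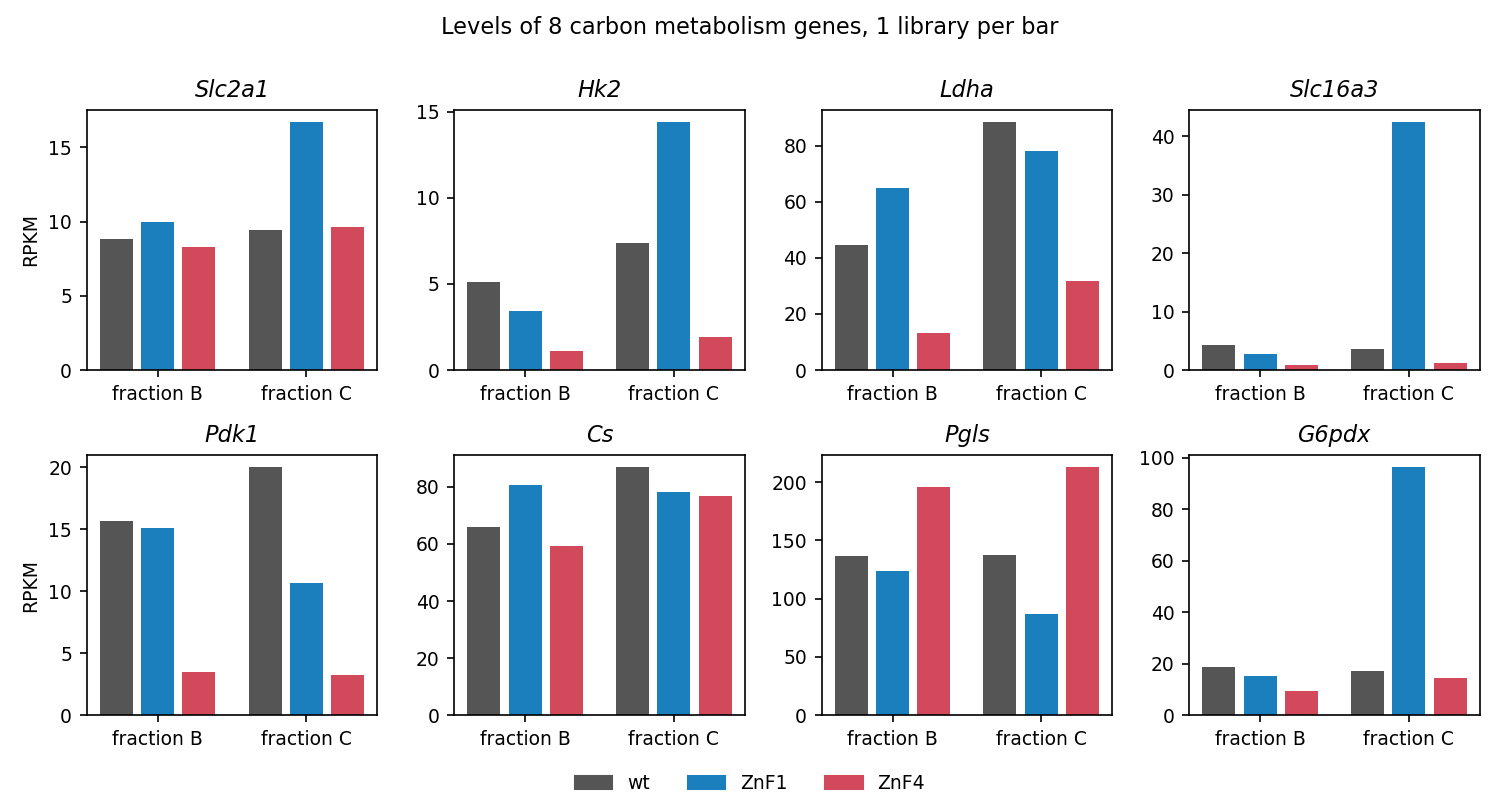
RPKM (y axis, from 0, scaled per panel) of 8 members in the 6 libraries, 1 bar per library, by fraction (x axis) and genotype (colour). ZnF4 has the lowest bar of each fraction for Hk2, Ldha, Slc16a3 and Pdk1 and the highest for Pgls, while Slc2a1 is at 8.3 to 10 RPKM in 5 libraries and 16.7 in ZnF1 of fraction C.

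In the mitochondrial arm the folds of ZnF4 against wt ran from 1.89-fold lower to 1.34-fold higher in fraction B and from 1.88-fold lower to 1.2-fold higher in fraction C. Cs, citrate synthase, which condenses acetyl-CoA with oxaloacetate at the entry to the cycle, measured 66 RPKM in wt, 80.8 in ZnF1 and 59.2 in ZnF4 of fraction B, and 86.9, 78.2 and 76.8 RPKM in fraction C. The ZnF4 and wt values overlap (log2 -0.17, SE 0.20, adjusted p = 0.688 by limma). The lowest fold was that of Me2, the mitochondrial malic enzyme that forms pyruvate from malate, at 1.89-fold and 1.88-fold below wt. Sdhd, a membrane anchor of succinate dehydrogenase, was 1.53-fold and 1.54-fold lower. Pdhb, the beta subunit of the E1 component of pyruvate dehydrogenase, had the highest fold in fraction B, 1.34-fold above wt, and was 1.14-fold above wt in fraction C. In fraction C the highest was Idh1, the cytosolic NADP-dependent isocitrate dehydrogenase, 1.2-fold above wt after 1.01-fold below it in fraction B. Also above wt, by 1.18-fold and 1.11-fold, was the X-linked Idh3g, the gamma subunit of the NAD-dependent isocitrate dehydrogenase.

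Subunits of the same mitochondrial complex had folds that differed, on 1 library per side and with no member called by limma. Of pyruvate dehydrogenase, Pdha1 (E1 alpha) was 1.2-fold and 1.22-fold lower and Dlat (E2) 1.31-fold and 1.56-fold lower in ZnF4 than in wt. Pdhb was higher, but its level is uncertain because pseudogene copies cover 71.2% of its transcript. Of succinate dehydrogenase, Sdha, Sdhb and Sdhd were lower than wt in both fractions, by 1.3-fold and 1.31-fold for Sdha and by 1.14-fold and 1.04-fold for Sdhb, and Sdhc was 1.09-fold lower in fraction B and 1.12-fold higher in fraction C. Suclg1, the alpha subunit of succinyl-CoA ligase, stood at 44.4, 41.5 and 29.3 RPKM in the wt, ZnF1 and ZnF4 libraries of fraction B and 57.4, 41.7 and 42.9 RPKM in those of fraction C (log2 ZnF4 against wt -0.50, SE 0.20, adjusted p = 0.303 by limma). Suclg2, the beta subunit of the GTP-forming enzyme, was at 0.4 to 1.2 RPKM, too low for a fold. The other 10 members grouped in the mitochondrial arm were Dld, Idh1, Idh2, Idh3a, Idh3b, Ogdh, Dlst, Fh1, Mdh1 and Mdh2. Their folds lay between 1.61-fold below wt, for Idh2 in fraction B, and 1.2-fold above, for Idh1 in fraction C.

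The pentose arm was split as well. G6pdx, the X-linked glucose 6-phosphate dehydrogenase that opens the oxidative branch, measured 18.6 RPKM in wt, 15.2 in ZnF1 and 9.5 in ZnF4 of fraction B, and 17.3, 96.3 and 14.3 RPKM in fraction C. The gene was 1.87-fold and 1.2-fold lower in ZnF4 than in wt (log2 -0.58, SE 0.68, adjusted p = 0.679 by limma). Pgls, the lactonase of the next step, stood at 136.4, 123.8 and 196 RPKM in the wt, ZnF1 and ZnF4 libraries of fraction B and 137.5, 86.6 and 212.8 RPKM in those of fraction C. Pgls was the pentose member above wt in both ZnF4 libraries, by 1.43-fold and 1.54-fold (log2 0.57, SE 0.24, adjusted p = 0.322). Pgd, the third enzyme of the oxidative branch, was 1.58-fold and 1.49-fold lower. Tkt, the transketolase of the non-oxidative branch, had values of 141.5, 197 and 70.7 RPKM (wt, ZnF1 and ZnF4 of fraction B) and 189.1, 310.7 and 107.9 RPKM (fraction C). Both ZnF4 libraries lay below the other 4, 1.99-fold and 1.75-fold below wt (log2 -0.90, SE 0.20, adjusted p = 0.154). Rpia, which makes ribose 5-phosphate, was 1.33-fold and 1.17-fold lower, and Taldo1, the transaldolase, 1.14-fold lower in fraction B and 1.27-fold higher in fraction C.

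In the limma model with genotype and fraction as terms no member passed an adjusted p of 0.05 for ZnF4 against wt. Of all 10943 genes 1 higher gene (0.00914%) and 2 lower genes (0.0183%) passed. At an unadjusted p under 0.05 there were 15 members, all lower (9 of the glucose and lactate arm, 3 mitochondrial, 1 pentose and both kinases), against 17.6% of all genes in either direction. The spread of that model includes the ZnF1 library of fraction C. Without that library, 25 members passed as lower (13 of 14, 8 of 21, 2 of 6 and both kinases) and Pgls as higher, against 19.3% of all genes lower and 12.2% higher. Ldha then had an adjusted p of 0.00507, Pdk1 of 0.00539, Hk2 of 0.00715 and Slc16a3 of 0.0139. Leaving out the ZnF1 library of fraction B instead is no second check, as both fits compare the same wt and ZnF4 libraries. In both, ZnF1 has 1 library, 1 residual degree of freedom remains, and the spread comes from the wt and ZnF4 libraries. The calls did not hold when a wt or ZnF4 library was left out instead.

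Markers of granulocytes, monocytes and erythroid cells were lower in ZnF4 than in wt in both fractions, as was the median of the DNA replication genes, while that of the mitosis genes was lower in fraction B and higher in fraction C. Granulocyte and monocyte markers summed to 1006 RPKM in ZnF4 and 3752 in wt in fraction B and to 1740 and 2632 in fraction C, and erythroid markers to 26.2 and 137.4 and to 45.4 and 101.1. Of the 10 NK-cell and cytotoxic markers, 8 were listed at 0 in ZnF4 of fraction B and 2 in ZnF4 of fraction C. T-lineage markers summed to 11.3 RPKM in ZnF4 and 36.9 in wt in fraction B and to 19.8 and 35.2 in fraction C. Among plasmacytoid dendritic markers, Siglech stood at 0.1 RPKM in both ZnF4 libraries, against 24.2 and 7.5 in wt. In the same list Ly6d was above wt in both fractions and Tcf4 in fraction C. The 30 DNA replication genes had a median log2 difference of -0.78 in fraction B and -0.24 in fraction C, and the 20 mitosis genes of -0.65 and 0.15. The part of these cells and of proliferation in the lower values was not tested.

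**Figure D3:**
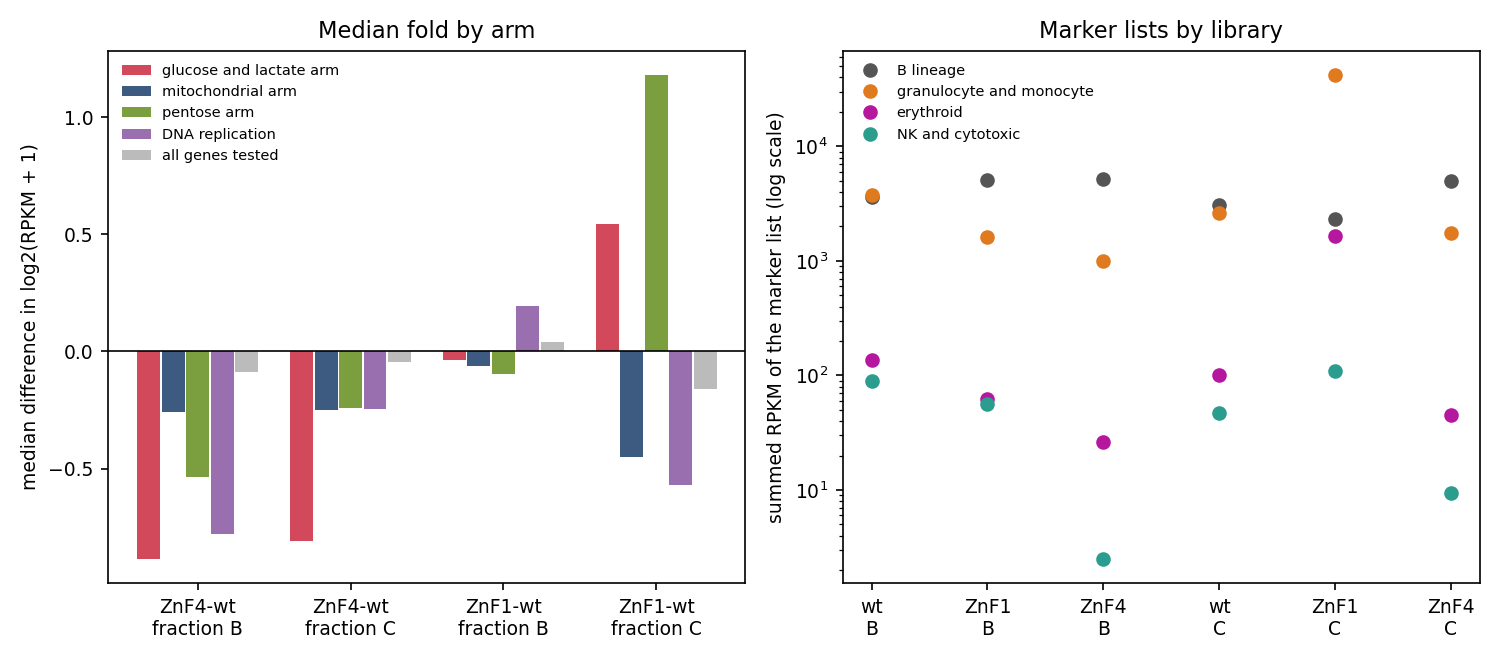
Left, median difference in log2(RPKM + 1) from the wt library of the same fraction for 3 arms, 30 DNA replication genes and all 10943 genes tested. Right, summed RPKM of 4 marker lists in each library on a log scale. The glucose and lactate arm is at -0.89 and -0.81 in ZnF4, and the granulocyte and monocyte sum reaches 42097 in ZnF1 of fraction C.

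The windows around the start sites of the 4 members that lay below wt by 2-fold or more in both ZnF4 libraries (Ldha, Hk2, Slc16a3 and Pdk1) are shown because these genes were lower together. They run from 250 bases before to 50 after the start, come from RefSeq on build GRCm38.p6, and are given 5′ to 3′ on the gene's strand. Capitals mark ACGTG on either strand (read as CACGT on the opposite strand), the core of sites known for Myc and for hypoxia-inducible factor. The E-box CACGTG contains that core on both strands, so the motifs overlap.
Ldha, chr7:46845554-46845853, plus strand: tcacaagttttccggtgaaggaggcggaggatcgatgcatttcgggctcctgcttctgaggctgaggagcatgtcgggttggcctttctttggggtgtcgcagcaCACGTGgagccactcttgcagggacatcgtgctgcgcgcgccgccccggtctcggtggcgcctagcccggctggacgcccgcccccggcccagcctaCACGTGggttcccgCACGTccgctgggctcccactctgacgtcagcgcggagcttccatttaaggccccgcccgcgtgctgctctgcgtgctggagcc
Hk2, chr6:82774405-82774704, minus strand: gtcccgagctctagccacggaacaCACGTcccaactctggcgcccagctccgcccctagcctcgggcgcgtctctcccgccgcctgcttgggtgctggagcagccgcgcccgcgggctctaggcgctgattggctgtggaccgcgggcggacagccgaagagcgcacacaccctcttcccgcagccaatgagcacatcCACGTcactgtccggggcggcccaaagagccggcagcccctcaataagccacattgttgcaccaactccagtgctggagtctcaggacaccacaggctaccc
Slc16a3, chr11:120948817-120949116, plus strand: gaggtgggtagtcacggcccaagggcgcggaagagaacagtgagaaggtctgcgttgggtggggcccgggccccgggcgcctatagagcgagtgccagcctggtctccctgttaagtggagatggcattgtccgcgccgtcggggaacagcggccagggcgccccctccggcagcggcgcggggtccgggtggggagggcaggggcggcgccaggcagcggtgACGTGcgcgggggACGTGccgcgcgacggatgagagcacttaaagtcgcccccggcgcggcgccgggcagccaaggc
Pdk1, chr2:71872974-71873273, plus strand: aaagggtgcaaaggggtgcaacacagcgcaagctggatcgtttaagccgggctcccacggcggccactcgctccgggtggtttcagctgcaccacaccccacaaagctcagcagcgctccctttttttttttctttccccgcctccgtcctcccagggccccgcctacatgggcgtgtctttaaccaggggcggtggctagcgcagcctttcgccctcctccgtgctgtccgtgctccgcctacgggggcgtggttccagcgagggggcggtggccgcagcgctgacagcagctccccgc

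The Ldha window held ACGTG at 3 separate places, 2 of them E-boxes, the Hk2 and Slc16a3 windows held it at 2 places each, and the Pdk1 window held none. A second Ldha start site in the table, at chr7:46846832-46847131, had no match, and the deposited values do not show which start was used. Of 45 members 41 were in the promoter table, and Slc2a3, Sdhc, Idh3a and Me2 were not. ACGTG was found on either strand in 9 of 14 genes of the glucose and lactate arm (64.3%), 5 of 19 of the mitochondrial arm (26.3%), 1 of 6 pentose genes and 1 of 2 kinases, counting every start site of a gene, and in 21.8% of the 27025 genes of the table. CACGTG was found for Ldha, Pfkm, Slc16a1 and Ogdh, and in 8.09% of all genes. GGGAA, the core of the sequence bound by Ikaros, was found on either strand in 10 of 14, 17 of 19, 4 of 6 and 2 of 2 genes of these arms and in 65.5% of all genes. The shares of all genes are over the whole promoter table, not over the 10943 genes tested in these cells. The matches describe the letters of the windows and do not show binding.

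In the ZnF1 mutant the medians of the arms lay closer to wt in fraction B than in fraction C on the RPKM scale as deposited, an order that did not hold for the mitochondrial arm once libraries were rescaled on B-lineage markers. The wt libraries are those used for ZnF4. In fraction B the median log2 difference from wt was -0.04 for the glucose and lactate arm, -0.06 for the mitochondrial arm and -0.10 for the pentose arm, beside 0.04 over all genes. In fraction C these medians were 0.55, -0.45 and 1.18, beside -0.16. Rescaling on the B-lineage markers shifted all genes by -0.58 in the ZnF1 library of fraction B and by 0.53 in that of fraction C. The medians in the same order then became -0.64, -0.66 and -0.70 for fraction B, and 0.997, 0.00 and 1.63 for fraction C. The markers themselves differed between genotypes. Against wt in fraction B they ran from 1.41-fold lower (Cd24a) to 2.38-fold higher (Vpreb2) in ZnF1. In ZnF4 they ran from 2.89-fold lower (Bst1) to 2.86-fold higher (Il7r). In ZnF1 no member was 2-fold higher, or 2-fold lower, than wt in both fractions, against 0.758% and 0.804% of all genes.

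The fraction C values of ZnF1 came from the library with high granulocyte and erythroid markers. In it Slc16a3 was 9.43-fold, Slc2a3 5.5-fold, G6pdx 5.32-fold, Idh1 4.88-fold and Pgd 3.32-fold above wt. In fraction B Slc16a3 was 1.43-fold, Slc2a3 1.5-fold, G6pdx 1.21-fold and Pgd 1.04-fold below wt, and Idh1 was 1.24-fold above it. Hk3, a hexokinase of myeloid cells that is no member, stood at 92.3 RPKM there, against 6.2 RPKM in wt. The lowest ratios were those of Pfkl, 1.89-fold, and Pdk1, 1.79-fold below wt in fraction C. The part of the granulocyte and erythroid RNA in these values was not tested.

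**Figure D4:**
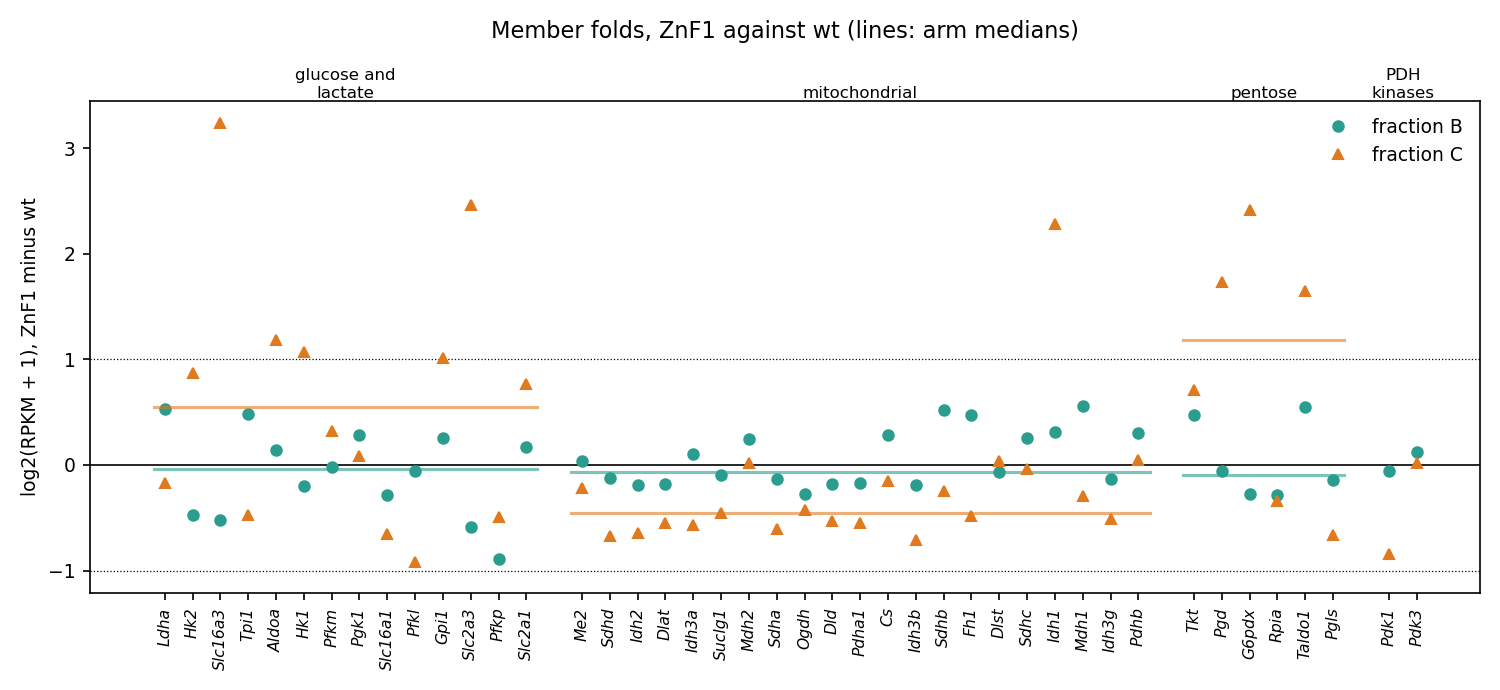
Difference in log2(RPKM + 1) between the ZnF1 and the wt library for the 43 members tested, in the same order as for ZnF4, with fraction B as circles and fraction C as triangles. Bars are arm medians, and dotted lines mark 2-fold. The fraction B medians of the larger arms lie between -0.10 and -0.04, and in fraction C Slc16a3 (9.43-fold), Slc2a3 (5.5-fold), G6pdx (5.32-fold) and Idh1 (4.88-fold) are the highest points.

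Limma called no member for ZnF1 against wt, beside 1 higher gene (0.00914%) and 2 lower genes (0.0183%) of all tested. At an unadjusted p under 0.05 there were 3 members, 2 higher and 1 lower, against 9.3% of all genes. The higher ones were pentose members, among them Tkt (log2 0.59, SE 0.20, adjusted p = 0.52), and the lower one was Pfkp (log2 -0.70, SE 0.21, adjusted p = 0.509). Without the ZnF1 library of fraction C it again called 0 members, beside 0.064% of all genes higher and 0.0822% lower, with 8 members at an unadjusted p under 0.05, against 18.7% of all genes. Without the ZnF1 library of fraction B it called 12 members higher and 13 lower, beside 16.9% and 20.7% of all genes, in a contrast that rests on the ZnF1 library with high granulocyte markers alone. Of the members, 6 were higher in both ZnF1 libraries than in either wt library (19.4% of all genes), and 14 were lower (23.6% of all genes). The lower ones included 10 of 21 in the mitochondrial arm, among them Pdha1, Dlat and Dld of pyruvate dehydrogenase and Sdha and Sdhd of succinate dehydrogenase. These counts also rest on the ZnF1 library of fraction C. There the median of the mitochondrial arm against wt was -0.45 as deposited and 0.00 after rescaling on B-lineage markers.

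The mutants can be compared without the wt libraries, and Xist was listed at 0 in all 4 of theirs. The median log2 difference of ZnF4 from ZnF1 was -0.93 in fraction B and -1.22 in fraction C for the glucose and lactate arm, -0.38 and 0.20 for the mitochondrial arm, and -0.61 and -1.41 for the pentose arm, beside -0.17 and 0.13 over all genes. After rescaling on the B-lineage markers the fraction B medians of these arms were -0.45, 0.095 and -0.14. Those of fraction C were -2.01, -0.60 and -2.20, so that the sign of the mitochondrial arm turned in both fractions. The markers used for this rescaling differed between genotypes themselves. The fraction C medians rest on the ZnF1 library with granulocyte RNA. At least 2-fold lower in ZnF4 in both fractions were 5 members, Hk2, Gpi1, Ldha, Tkt and Pdk1, against 5.45% of all genes, and no member was higher by that measure (3.11%). With the B-lineage rescaling, 1 glucose and lactate member instead of 5 and no pentose member instead of 1 were 2-fold lower or more in fraction B. Both ZnF4 libraries lay below both ZnF1 libraries for 22 members (27.5% of all genes), among them 11 of 14 of the glucose and lactate arm, and above them for Pdhb, Idh3b, Idh3g and Pgls (24.5%). Ldha was 4.62-fold and 2.43-fold lower (log2 -1.75, SE 0.28, adjusted p = 0.0635 by limma). Pdk1 was 3.58-fold and 2.79-fold lower (log2 -1.66, SE 0.25, adjusted p = 0.06). Tkt was 2.76-fold and 2.86-fold lower (log2 -1.49, SE 0.20, adjusted p = 0.0514). Gpi1 was 2.14-fold and 3.19-fold lower (log2 -1.38, SE 0.24, adjusted p = 0.0719), and Hk2 2.1-fold and 5.31-fold lower (log2 -1.74, SE 0.42, adjusted p = 0.112).

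No member passed limma's adjusted p of 0.05 between the mutants, where 1.14% of all genes were called higher and 0.676% lower, and 16 members, 15 of them lower, had an unadjusted p under 0.05, against 22.7% of all genes. Without the ZnF1 library of fraction C, 20 members passed as lower and Pgls as higher, beside 16.1% and 8.43% of all genes. Ldha then had an adjusted p of 0.00576, Tkt of 0.00892 and Pdk1 of 0.00947. That contrast rests on the ZnF1 library of fraction B alone, which is assumed to vary like the others. With the fraction C library in its place, 3 members passed as higher and 19 as lower, beside 18.2% and 19.4% of all genes.

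From fraction B to fraction C 19 members were higher in all 3 genotypes and none was lower, against 12.2% and 13.4% of all genes. They comprised 9 of 14 in the glucose and lactate arm, 6 of 21 in the mitochondrial arm, 3 of 6 in the pentose arm, and Pdk3. In wt the median log2 difference of C from B was 0.43 for the glucose and lactate arm, 0.36 for the mitochondrial arm and 0.07 for the pentose arm, beside 0.06 over all genes. In ZnF4 the same medians were 0.36, 0.38 and 0.53. In ZnF1, whose fraction C library holds the granulocyte RNA, they were 0.80, -0.08 and 0.87. In that genotype 14 of 21 members of the mitochondrial arm were lower in C. Ldha was 1.96-fold higher in C in wt, 1.2-fold in ZnF1 and 2.28-fold in ZnF4, so that ZnF4 at 31.6 RPKM in fraction C remained below wt at 44.7 RPKM in fraction B. Pdk1 was 1.26-fold higher in C in wt and 1.38-fold and 1.07-fold lower in ZnF1 and ZnF4. The 30 replication genes were all higher in C in wt, with a median of 0.50, and their part in the difference was not tested. Limma called 0 members and 0 of all genes (0.0%) for C against B, with 8 members and 511 genes at an unadjusted p under 0.05.

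Other genes of the same routes, taken from lists, gave the following for ZnF4 against wt. Of 23 further glucose and lactate genes tested, limma called none, and 2 were higher and 4 lower at an unadjusted p under 0.05. At that unadjusted threshold stood 17.6% of all genes in either direction. Their medians were -0.59 in fraction B and -0.39 in fraction C. Without the ZnF1 library of fraction C, 3 passed as higher and 10 as lower, against 12.2% and 19.3% of all genes. Pkm2, pyruvate kinase of the last step of glycolysis, measured 40 RPKM in wt against 17.5 in ZnF4 for fraction B, and 56.2 against 24.8 RPKM for fraction C (log2 -1.15, SE 0.20, adjusted p = 0.127). Slc2a6, a hexose transporter, measured 4.2 RPKM in wt against 0.2 in ZnF4 for fraction B, and 1.8 against 0.4 RPKM for fraction C. Slc2a8, an intracellular glucose transporter, was higher instead and measured 2.8 RPKM in wt against 10.5 in ZnF4 for fraction B, and 2.7 against 7.7 RPKM for fraction C (log2 1.42, SE 0.21, adjusted p = 0.111). Pgam2, the muscle phosphoglycerate mutase, measured 5.7 RPKM in wt against 16.5 in ZnF4 for fraction B, and 3.3 against 11.9 RPKM for fraction C.

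Of 22 further mitochondrial carbon genes limma called none (1 higher and 3 lower at an unadjusted p under 0.05), with medians of -0.27 and -0.09. Over all genes the unadjusted share was 17.6% in either direction, for this list and the pentose genes below. Got2, the mitochondrial aspartate aminotransferase of the malate-aspartate shuttle, measured 5.4 RPKM in wt against 2.1 in ZnF4 for fraction B, and 7.5 against 3.4 RPKM for fraction C. Pdk2, a further pyruvate dehydrogenase kinase, measured 11.4 RPKM in wt against 16 in ZnF4 for fraction B, and 7 against 12.9 RPKM for fraction C, higher where Pdk1 and Pdk3 were lower (log2 0.63, SE 0.19, adjusted p = 0.217). Of 6 further pentose genes limma called none (1 lower at an unadjusted p under 0.05), with medians of -0.70 and -0.48. Prps2, which makes the ribose donor of nucleotide synthesis, measured 38.3 RPKM in wt against 19.9 in ZnF4 for fraction B, and 45.4 against 27.3 RPKM for fraction C.

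Among 24 regulators of these routes limma called none, and 5 were higher and 3 lower at an unadjusted p under 0.05 for ZnF4 against wt. The share of all genes at that unadjusted threshold was 17.6% in either direction. Myc, a transcription factor known to drive glycolytic genes, measured 48.7 RPKM in wt, 25.7 in ZnF1 and 5.5 in ZnF4 of fraction B, and 91.7, 22.5 and 11.3 RPKM in fraction C. It was lowest in the ZnF4 libraries (log2 against wt -2.92, SE 0.34, adjusted p = 0.0896, and 0.00385 without the ZnF1 library of fraction C). It was also below wt in both ZnF1 libraries. Hif1a, the oxygen-regulated subunit of hypoxia-inducible factor, stood at 23.1, 23.2 and 21.3 RPKM in the wt, ZnF1 and ZnF4 libraries of fraction B and 23.3, 18.8 and 27.8 RPKM in those of fraction C. Txnip, an inhibitor of glucose uptake, had values of 130.7, 111 and 176.9 RPKM (wt, ZnF1 and ZnF4 of fraction B) and 71.7, 171.5 and 109.2 RPKM (fraction C). It was higher in ZnF4 than in wt of the same fraction, with overlap across fractions. The 14 hypoxia-response genes outside carbon metabolism had medians of -0.14 and -0.30, with none called by limma. At an unadjusted p under 0.05, 1 was higher and 1 lower, against the same 17.6% of all genes.

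For 6 members reads may be shared with gene copies. Pseudogene copies of at least 97% identity cover 76.8% of the transcript of Ldhb, 71.2% of Pdhb, 68.8% of Pgk1, 38.7% of Suclg2, 36.3% of Gpi1 and 19.3% of Tpi1 in the GENCODE annotation of the reference build, and none of the other 39. Levels of these 6 are uncertain, and how shared reads were counted is not stated in any source used here.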

How the data were processed

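The deposited table holds RPKM values per RefSeq transcript, per the file headers. The values themselves are listed in steps of 0.1. Per the submitters' processing notes, TopHat, bedtools and build mm9 were used in roles and versions that are not given. Strand use and the treatment of shared reads are not stated in any source used here. Whole reads could not be recovered, so depth is unknown. Libraries summed to 262649 to 355822 RPKM, with 10342 to 10947 genes at 1 RPKM or more. One of 26532 entries names no gene and was left out.

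Groups came from the sample titles. In R 4.3.3, limma 3.58.1 (lmFit, then eBayes with a trend) modelled log2(RPKM + 1) of the 10943 genes on genotype plus fraction, leaving 2 residual degrees of freedom. Two-sided p-values were adjusted by Benjamini-Hochberg over all genes, and an adjusted p under 0.05 was a call. The fit was tested on simulated data with additive effects and equal noise in every library. None of the simulated libraries stood apart as ZnF1 of fraction C does, so that test does not cover such a case. With 1 library per genotype and fraction, the residual spread is the departure from additive effects of genotype and fraction. P-values are set against that spread, part of which may be technical, and not against replicates.

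The members, arms and lists were chosen with earlier results of these data known. Named by rule were members at least 2-fold from wt, or between mutants, in both fractions, their paralogs, and Slc2a1, Cs and G6pdx. Of other members and list genes, those with the highest and lowest folds were named, and Myc, Hif1a and Txnip. Remaining members named one by one (Tpi1, Aldoa, Pgk1, Pgd, Rpia, Taldo1 and subunits of pyruvate and succinate dehydrogenase) were added after their values were seen. Alternatives changed the pseudocount, filter, transcript choice, scaling, model terms, libraries and X-linked members.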

Additional observations from a re-analysis of the deposited data

Results flagged for a closer look

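In 5 members the ZnF1 library differed from wt in opposite directions in the fractions, by at least 1.25-fold in each, on 1 library per side. The difference between the fractions was not tested. On the log2(RPKM + 1) scale, fraction C minus fraction B was 3.76 for Slc16a3 (-0.52 in fraction B and 3.24 in fraction C), 3.05 for Slc2a3 (-0.59 and 2.46) and 1.35 for Hk2 (-0.47 and 0.87). It was -0.95 for Tpi1 (0.48 and -0.47) and -0.96 for Fh1, the fumarase of the TCA cycle (0.47 and -0.48). All 5 involve the ZnF1 library of fraction C, in which granulocyte and monocyte markers summed to 42097 RPKM.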

How the results depend on the processing

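For ZnF4 against wt, the medians of the glucose and lactate arm ranged from -1.01 to -0.79 in fraction B and from -1.15 to -0.76 in fraction C over the settings, those of the mitochondrial arm from -0.38 to -0.16 and from -0.59 to -0.18, and those of the pentose arm from -0.66 to -0.41 and from -0.58 to -0.19. Rescaling on B-lineage markers moved ZnF1 medians: in fraction B against wt to -0.64 (glucose and lactate), -0.66 (mitochondrial) and -0.70 (pentose), for ZnF4 against ZnF1 in fraction C to -2.01, -0.60 and -2.20, and for ZnF1 fraction C against B to 1.90, 1.02 and 1.97. Without X-linked members the glucose and lactate median minus the pentose median of ZnF1 against wt in fraction C went from -0.64 to 0.054, also when Idh3g was left out as well, a setting chosen after seeing the data. Limma called 0 members in each contrast. With genotype alone as a term it called 1 for ZnF4 against wt and 1 for ZnF4 against ZnF1, with a pseudocount of 0.25 it called 1 for ZnF4 against ZnF1, and with the 4 libraries compared it called 26 for ZnF4 against wt. Leaving out 1 library gave 0 to 26 for ZnF4 against wt, 0 to 25 for ZnF1 against wt and 0 to 22 for ZnF4 against ZnF1. Of these, leaving out ZnF1 of fraction C gave 26, 0 and 21, and leaving out ZnF1 of fraction B gave 26, 25 and 22. Calls without 1 library rest on 1 residual degree of freedom. For ZnF4 against wt, the calls without 1 ZnF1 library and those with the 4 libraries compared come from the same wt and ZnF4 libraries. The adjusted p of Ldha ranged from 0.00447 to 1.0 and that of Pdk1 from 0.00489 to 0.953. No paired analysis was possible because the labels carry no replicate numbers and each group has 1 library. Depth is unknown, and values under 1 RPKM carry few digits, which limits Ldhb, Suclg2 and Slc16a3.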
